A study of Mus musculus with 10 samples.

Results

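The 5 Mes lines are cell lines of mouse small cell lung cancer, and their gene expression was compared with one another here, 5 of the 10 samples of the series. Each line was grown from a single picked clone of a tumour type labelled non-NE, meaning not neuroendocrine, without the hormones and nerve cell proteins usual in this cancer. The labels give every line the genotype RbL/L, Trp53L/L, which stands for alleles of Rb1 and Trp53 flanked by loxP sites, culture in RPMI1640 with 10% serum and no treatment. They do not spell out the names Mes and Epi, nor is it given whether 1 tumour or several gave rise to the lines. Messenger RNA was measured once per line on an Agilent mouse array with a single dye. A line therefore has no replicate array, no difference between lines could be tested, and the values describe these cultures. The RNA came from whole cultures, in which fewer cells making a transcript and less transcript per cell cannot be told apart.

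Probes were kept when they were well above background on all 5 Mes arrays, which held for 23572 of the 41174 probes. They measured 12755 of the 21211 named genes on the array, each through its brightest such probe. Values are the log2 signals that the authors deposited, so a difference of 1 is a 2-fold difference in signal. The spread of a gene is the standard deviation (SD) of its 5 log2 values, and a gene with an SD of at least 1 is called variable. On single arrays 25364 to 26515 probes (61.6% to 64.4%) were above background, and no spot was saturated. The precision of the arrays was read from probes printed at 10 spots, whose SD within a Mes array had a median of 0.0625 to 0.0812. Bright spike-in transcripts, added as the same mix to each sample, had an SD over the Mes arrays of 0.041 to 0.151 (8 probes, median 0.122). These values cover the array and the labelling, and not the spread between cultures of a line.

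Small cell lung cancer usually follows the loss of the retinoblastoma and p53 proteins in the airway. Most such tumours are neuroendocrine, and cells without that state can take on features of connective tissue cells, which deposit collagen and other matrix proteins, shed cytokines and lack the cell junctions of epithelium. In the Mes lines all 6 mesenchymal markers examined, Vim, Fn1, Cdh2, Zeb1, Twist1 and Sparc, were above background on every array. None of 6 epithelial markers was above background on every array, and Cdh1, Epcam and Krt8 were on none. Krt18 and Cldn7 were above background on 4 of the arrays and Krt19 on 2. Among neuroendocrine markers, Syp, Uchl1 and Ncam1 were above background on all arrays and Neurod1 and Insm1 on none. All 4 smooth muscle markers, 2 of 6 leukocyte markers (Cd3e among them) and none of 4 tuft cell or 4 endothelial markers were above background on every array, with Ptprc, Itgam and Adgre1 of the leukocyte list and Pecam1 and Cdh5 of the endothelial list on none. Xist, the RNA of the inactive X chromosome, was above background in every line, and 4 genes of the Y chromosome were above background in none. The signal of Rb1 was 6.74 to 7.33 and that of Trp53 9.16 to 9.73 over the lines. Whether these probes lie in the loxP-flanked parts of the genes is not given in the sources used here, so they do not check the genotype.

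The median gene had an SD of 0.305 over the 5 lines, and the middle of the distribution ran from 0.205 to 0.464 (quartiles). Of the 12755 genes, 2753 (21.6%) had an SD of at least 0.5, 743 (5.83%) of at least 1, 129 (1.01%) of at least 2 and 21 of at least 3. The SD of 87.8% of genes was above the highest SD of the bright spike-ins, 0.151. Dimmer spike-ins had an SD of 0.324 (mean signal 2.79) and 0.14 (mean signal 1.41), and the means of measured genes began at 3.04. For dim genes the comparison with bright spike-ins is therefore not a fair measure of array noise. With the genes split by brightness into 4 groups of equal size, variable genes made up 11.3% of the dimmest, against 7.09%, 3.54% and 1.41% in the groups of rising brightness. For 187 variable genes a second probe was also above background on all 5 arrays. The second probe had an SD of at least 1 for 149 of them (79.7%), and for 142 (75.9%) both probes gave the same highest and the same lowest line. The same held for 41.9% of the 5539 other genes with a second probe. For 8 variable genes the second probe had an SD under 0.5. The count of variable genes was 251 with a normexp background correction (a model of spot and background signal, with an offset of 50), which shrinks differences between dim probes, and 1928 with dim probes kept. On the 12181 genes measured on all 10 arrays, 628 (5.16%) were variable over the Mes lines, beside 452 (3.71%) over the 5 Epi lines. The 223 genes variable in both groups were 35.5% of the Mes list and 49.3% of the Epi list.

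No single line stood at one end for all of the genes that varied most. Fabp4, the fatty acid carrier of fat cells and macrophages, had the largest SD, 3.93. Its log2 signal was 13.55 in Mes1, 13.87 in Mes4 and 9.04 in Mes5, against 6.41 in Mes2 and 5.42 in Mes3 (chromosome 3, 10204533 to 10205262 of mm9), and its second probe had an SD of 3.78. Mes1 and Mes4 were thus high, Mes5 lay between, and Mes2 and Mes3 were low, with 350.5 times as much signal in Mes4 as in Mes3. Magohb, a subunit of the exon junction complex, had 10.85 in Mes2 and 11.22 in Mes3, against 4.58 in Mes1, 3.51 in Mes4 and 4.33 in Mes5 (chromosome 6, 131234716 to 131235689 of mm9). Loxl2, an oxidase that crosslinks collagen, had 12.14 in Mes1 and 8.69 in Mes5, against 4.01 in Mes2, 3.67 in Mes3 and 4.01 in Mes4 (chromosome 14, 70095254 to 70095313 of mm9). Clmp, an adhesion molecule of cell junctions, had 8.45 in Mes2 and 5.15 in Mes3, against 13.46 in Mes1, 12.80 in Mes4 and 13.63 in Mes5 (chromosome 9, 40591109 to 40591168 of mm9). The first of these was thus high in Mes2 and Mes3 alone, the second high in Mes1 with Mes5 behind it, and the third low in Mes3 and, less so, in Mes2.

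Ctsz, the lysosomal protease cathepsin Z, had 4.0 in Mes2 and 8.21 in Mes4, against 12.16 in Mes1, 12.05 in Mes3 and 12.85 in Mes5 (chromosome 2, 174253228 to 174253287 of mm9). This gene separated Mes2 from its close partner Mes3, and its second probe had an SD of 3.43. Adgre5, the adhesion receptor CD97, had 3.35 in Mes1, against 12.17 in Mes2, 12.26 in Mes3, 9.62 in Mes4 and 10.93 in Mes5 (chromosome 8, 86247415 to 86247474 of mm9). Ebf3, a transcription factor, had 3.37 in Mes4, against 10.45 in Mes1, 11.80 in Mes2, 11.99 in Mes3 and 10.25 in Mes5 (chromosome 7, 144385490 to 144385549 of mm9). Each of these last 2 genes was low in 1 line alone. Tmsb4x, which encodes the actin monomer binding protein thymosin beta 4, had 7.46 in Mes4 and 10.43 in Mes5, against 15.12 in Mes1, 14.50 in Mes2 and 15.09 in Mes3 (chromosome X, 163645368 to 163645427 of mm9). Plscr2, of the phospholipid scramblase family, had 12.32 in Mes1, against 8.48 in Mes2, 6.42 in Mes3, 3.27 in Mes4 and 8.32 in Mes5. Aqp1, a water channel, had 12.14 in Mes5, against 6.70 in Mes1, 4.29 in Mes2, 5.65 in Mes3 and 4.31 in Mes4. Tmsb4x was high in Mes1, Mes2 and Mes3 and low in Mes4, whereas Plscr2 covered the whole range from Mes1 at the top to Mes4 at the bottom, and Aqp1 was high in Mes5 alone. Nol3, a repressor of cell death, had 8.42 in Mes1 and 9.92 in Mes5, against 3.41 in Mes2, 3.71 in Mes3 and 4.19 in Mes4. Nipsnap1, a mitochondrial protein, had 10.52 in Mes1 and 5.97 in Mes5, against 3.40 in Mes2, 3.52 in Mes3 and 3.77 in Mes4. Mbp, the gene of myelin basic protein, had 5.33 in Mes2 and 5.64 in Mes3, against 11.77 in Mes1, 9.62 in Mes4 and 10.38 in Mes5. The plot of the 25 genes of largest SD shows the lines in these different orders.

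**Figure D1:**
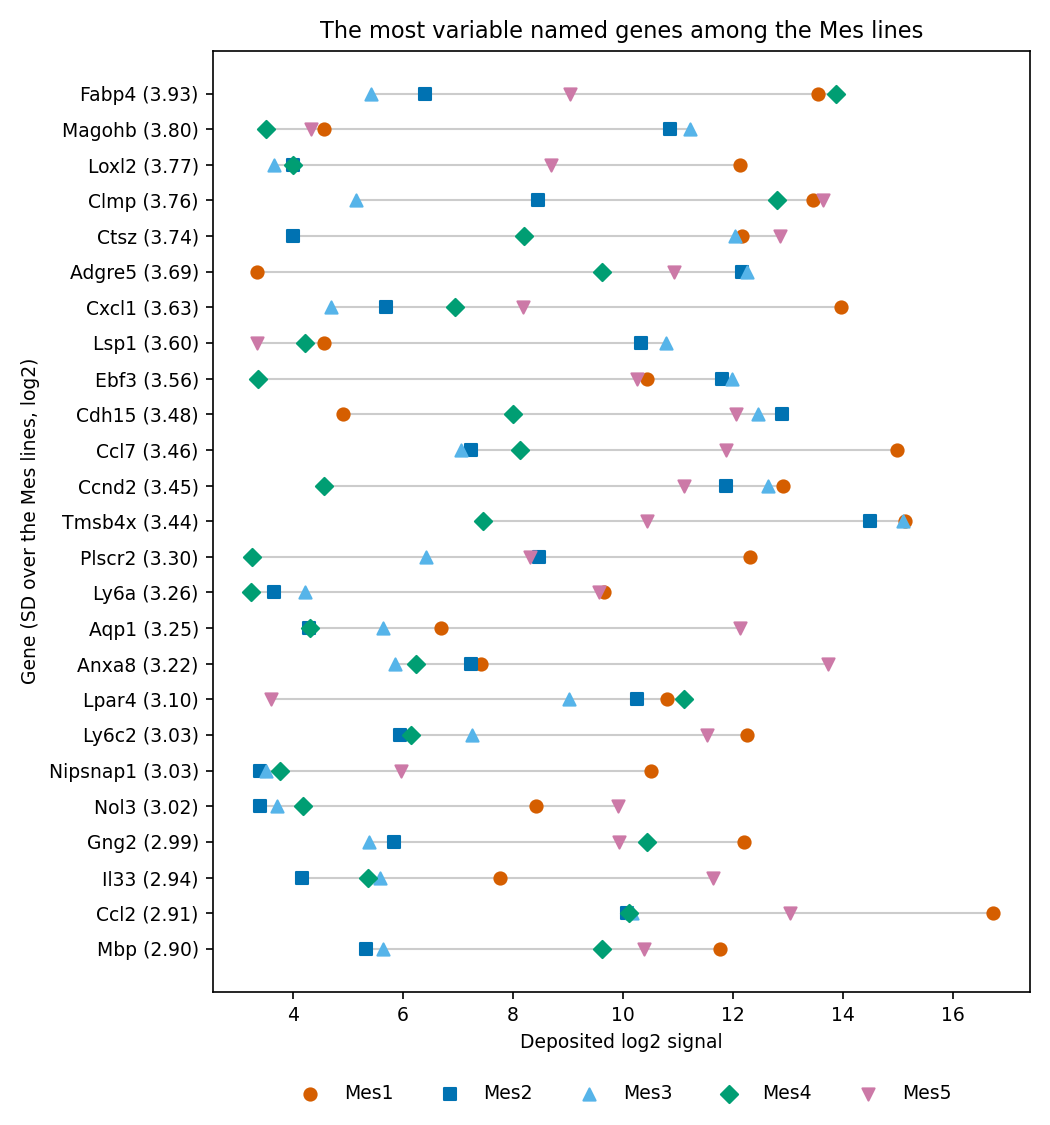
Log2 signal (horizontal axis) of the 25 named genes of largest SD in each of the 5 Mes lines, 1 array per line, with the SD in parentheses after the symbol and a grey line from the lowest to the highest line. Mes2 (squares) and Mes3 (upward triangles) are farthest apart for Ctsz, at 4.0 and 12.05, and Fabp4 at the top has the largest SD, 3.93.

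Taken over all variable genes, Mes1 was the highest line for 290 of 743 (39.0%), Mes5 for 161 (21.7%), Mes2 for 118, Mes3 for 90 and Mes4 for 84. Mes4 was the lowest line for 181 (24.4%), Mes3 for 162, Mes2 for 151, Mes5 for 132 and Mes1 for 117. The lines also differed in how often they stood alone. Mes1 was at least 2-fold above each of the others for 271 genes (2.12% of those measured) and at least 2-fold below for 187 (1.47%). For Mes5 these counts were 98 (0.768%) and 90 (0.706%), and for Mes4 they were 43 (0.337%) and 150 (1.18%). Mes2 stood above for 50 (0.392%) and below for 61 (0.478%), and Mes3 above for 20 (0.157%) and below for 60 (0.47%). Mes1 was thus the line most often alone in both directions, and Mes4 stood alone more often below than above.

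Mes2 and Mes3 were the closest pair of lines. They differed at least 2-fold in 525 genes (4.12%), against 942 (7.39%) for Mes4 and Mes5, the next closest pair, and 2047 (16.0%) for Mes1 and Mes2, the most distant. The correlation over the measured genes, which share probes and arrays, was 0.986 for Mes2 and Mes3, against 0.952 to 0.973 for the other 9 pairs. The median difference in size was 0.244 between Mes2 and Mes3 and 0.233 between Mes4 and Mes5. By that measure Mes4 and Mes5 were at least as close, so the pair Mes2 and Mes3 stood apart by having fewer large differences. Mes2 and Mes3 were hybridised on different slides. Mes3 shared its slide with Mes4, from which it differed in 1166 genes (9.14%), and Mes2 shared its slide with Mes1 and Mes5, from which it differed in 2047 and 1536. Every pair that held Mes1 differed in at least 1538 genes.

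**Figure D2:**
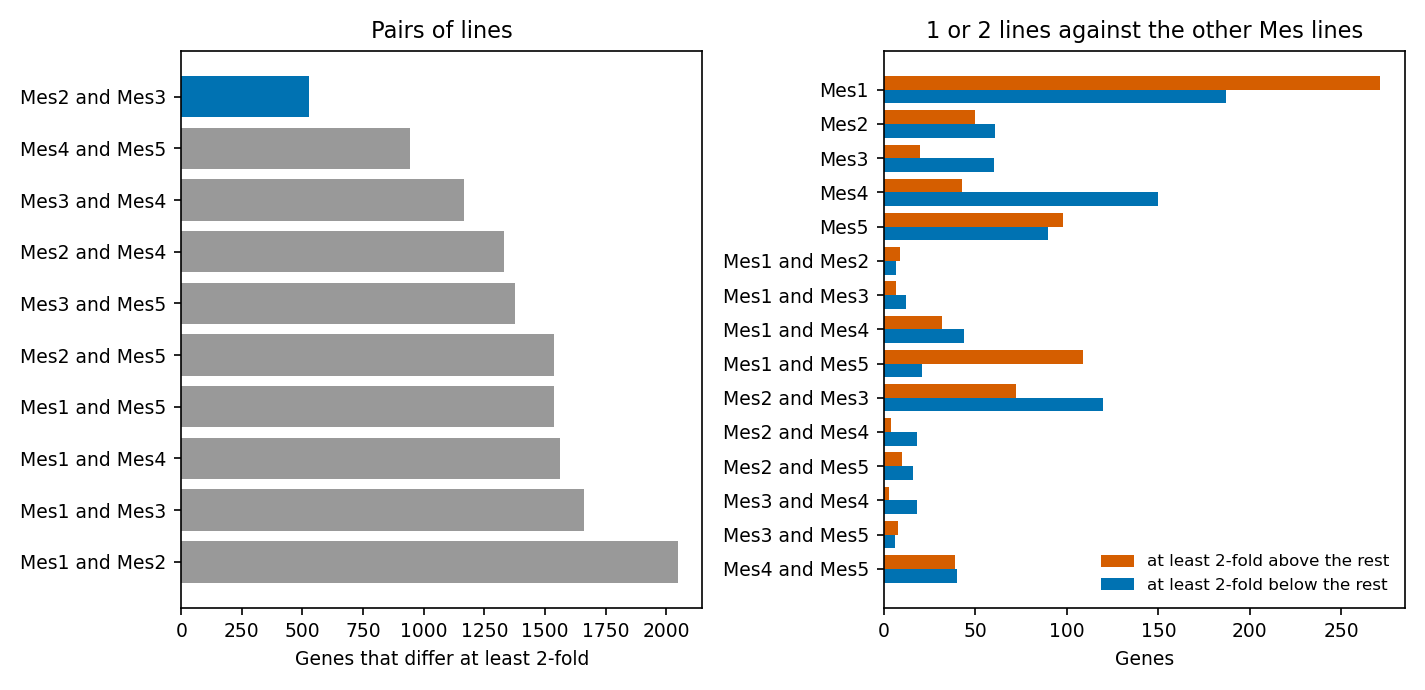
Left, number of genes that differ at least 2-fold between each pair of Mes lines, of 12755 measured, with Mes2 and Mes3 in blue. Right, number of genes in which 1 line or a pair of lines lies at least 2-fold above (orange) or below (blue) every other Mes line. Mes2 and Mes3 differ in 525 genes, the fewest of the 10 pairs, and Mes1 has the most genes of its own, 271 above and 187 below.

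As a pair, Mes2 and Mes3 both lay at least 2-fold above Mes1, Mes4 and Mes5 for 72 genes (0.564%) and at least 2-fold below for 120 (0.941%). Mes1 and Mes5 together stood above for 109 (0.855%) and below for 21 (0.165%), and the other 8 pairs had 3 to 44 genes in a direction. The genes high in Mes2 and Mes3 were led by Magohb and by Lsp1, an actin binding protein of leukocytes. Lsp1 had 10.34 in Mes2 and 10.78 in Mes3, against 4.57 in Mes1, 4.22 in Mes4 and 3.36 in Mes5 (chromosome 7), so the pair was at least 54.6 times as bright as the nearest of the other lines. Pkp1, the desmosome protein plakophilin 1, had 13.77 in Mes2 and 13.05 in Mes3, against 7.92 in Mes1, 9.13 in Mes4 and 9.94 in Mes5, a gap of 3.11. Msln, the surface glycoprotein mesothelin, had 9.61 in Mes2 and 10.96 in Mes3, against 5.58 in Mes1, 5.02 in Mes4 and 6.22 in Mes5, a gap of 3.39. In all 3 genes the pair stood clear of the other lines, and Mes1, Mes4 and Mes5 differed less among themselves than from the pair. Gata3, a transcription factor of lymphocytes and several epithelia, had 7.29 in Mes2 and 6.86 in Mes3, against 4.31 in Mes1, 4.2 in Mes4 and 3.90 in Mes5. Tnni2, the inhibitory troponin of fast muscle, had 6.13 in Mes2 and 6.94 in Mes3, against 3.90 in Mes1, 4.07 in Mes4 and 3.59 in Mes5 (chromosome 7). Hbegf, a growth factor that binds the epidermal growth factor receptor, had 12.03 in Mes2 and 12.02 in Mes3, against 10.12 in Mes1, 10.00 in Mes4 and 9.96 in Mes5. Adam12, a membrane metalloprotease, had 8.13 in Mes2 and 8.35 in Mes3, against 6.10 in Mes1, 5.61 in Mes4 and 5.99 in Mes5 (chromosome 7), and its second probe had an SD of 1.31. With the normexp correction 22 genes lay above and 57 below in the pair. Of the lists of functions examined, no list had more than 1 measured member in the set of 72. Those members included Col7a1 of the collagens, Itga9 of the integrins, Hey1 of the Notch pathway and Psmb9 of antigen presentation. By Gene Ontology terms, however, 8 of the 72 (11.1%) were cell adhesion genes. That share was 5.83% of the 120 genes low in the pair, 5.52% of all variable genes and 1.61% of all measured genes.

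The genes low in Mes2 and Mes3 included secreted proteins and growth factors. By the Gene Ontology terms of the deposited table, 26 of the 120 (21.7%) belonged to the extracellular region, against 9 of the 72 genes high in the pair (12.5%), 16.6% of all variable genes and 4.31% of all measured genes. Growth factors made up 6.67% of the 120 and 0.58% of all measured genes. Fgf7, a fibroblast growth factor that acts on epithelium, had 6.59 in Mes2 and 6.54 in Mes3, against 12.96 in Mes1, 10.93 in Mes4 and 10.90 in Mes5, at least 19.9 times less signal in the pair than in any other line. Olfml3, a secreted olfactomedin family protein, had 4.85 in Mes2 and 5.48 in Mes3, against 11.26 in Mes1, 9.81 in Mes4 and 9.26 in Mes5. Gng2, a G protein gamma subunit, had 5.84 in Mes2 and 5.40 in Mes3, against 12.20 in Mes1, 10.44 in Mes4 and 9.94 in Mes5. In each of these 3 genes the other 3 lines lay closer to one another than to the pair. Fgf10, the growth factor that drives branching of the lung, had 3.69 in Mes2 and 7.40 in Mes3, against 8.61 in Mes1, 9.78 in Mes4 and 8.43 in Mes5, so it was at least 2-fold lower in both, although Mes3 lay nearer to Mes5 than to Mes2. Vegfd, a growth factor of lymphatic vessels, had 6.52 in Mes2 and 8.36 in Mes3, against 10.92 in Mes1, 10.47 in Mes4 and 10.57 in Mes5. Ptn, the heparin binding growth factor pleiotrophin, had 9.81 in Mes2 and 10.52 in Mes3, against 12.05 in Mes1, 12.32 in Mes4 and 13.47 in Mes5. These 4 growth factors were the members of their list low in the pair, of 36 measured, against 0.941% of all measured genes. Col6a3, Col1a2 and Col16a1, chains of collagens VI, I and XVI, were low in the pair, of 21 collagens measured, and so were Cxcl1, Il6 and Cxcl12 of 25 chemokines and cytokines. Adgrg1, the adhesion receptor GPR56, had 4.99 in Mes2 and 4.77 in Mes3, against 9.35 in Mes1, 8.19 in Mes4 and 9.20 in Mes5. Rhoj, a small GTPase, had 4.66 in Mes2 and 4.96 in Mes3, against 9.30 in Mes1, 8.87 in Mes4 and 8.21 in Mes5, with an SD of 2.18 for its second probe. Fas, the death receptor, had 8.39 in Mes2 and 7.17 in Mes3, against 11.24 in Mes1, 10.86 in Mes4 and 10.43 in Mes5.

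Mes2 and Mes3 were close but not the same. Of the 525 genes that differed at least 2-fold between them, 296 (2.32%) were higher in Mes2 and 229 (1.8%) higher in Mes3, and 82 differed at least 4-fold. Ctsz had the largest difference, with 4.0 in Mes2 and 12.05 in Mes3. Bdh1, an enzyme of ketone body metabolism, had 3.49 in Mes2 and 9.68 in Mes3, with 6.67 in Mes1, 8.08 in Mes4 and 9.60 in Mes5. Efemp1, the matrix protein fibulin 3, had 5.96 in Mes2 and 11.10 in Mes3, with 9.62 in Mes1, 12.12 in Mes4 and 13.05 in Mes5. Here Mes3 lay with the rest and Mes2 was low. In the following 3 genes Mes3 was the lowest line. Plcg2, a phospholipase of immune and tuft cells, had 12.37 in Mes2 and 7.13 in Mes3, with 10.74 in Mes1, 7.34 in Mes4 and 11.77 in Mes5. Sulf2, which removes sulfate from heparan sulfate chains, had 9.96 in Mes2 and 5.43 in Mes3, with 12.33 in Mes1, 11.54 in Mes4 and 11.60 in Mes5, and its second probe had an SD of 2.79. Xdh, the purine enzyme xanthine dehydrogenase, had 8.77 in Mes2 and 4.89 in Mes3, with 10.11 in Mes1, 8.56 in Mes4 and 9.21 in Mes5.

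Genes of sterol and fatty acid synthesis were among those that separated the pair. Scd1, the desaturase that makes oleic acid, had 3.88 in Mes2 and 6.82 in Mes3, with 10.17 in Mes1, 9.77 in Mes4 and 10.16 in Mes5. Idi1, an enzyme of isoprenoid synthesis, had 10.20 in Mes2 and 11.72 in Mes3, with 12.34 in Mes1, 12.06 in Mes4 and 12.10 in Mes5. Insig1, the sensor that retains sterol regulators in the endoplasmic reticulum, had 7.27 in Mes2 and 8.41 in Mes3, with 9.54 in Mes1, 8.98 in Mes4 and 8.67 in Mes5. These 3 genes and Dhcr7, a late enzyme of cholesterol synthesis, were among the members lower in Mes2, where 5 of 32 measured members were at least 2-fold lower in Mes2 than in Mes3, against 1.8% of all measured genes. Mes2 was the lowest line for 21 of the 32 and Mes1 the highest for 24, against 19% and 23.1% of all measured genes. The median SD of the list was 0.51, above that of all genes, yet only 2 members, one of them Scd1, reached an SD of 1, so most differences in the list were small. The inducible heat shock genes Hspa1a and Hspa1b, whose coding sequences are nearly the same, were also lower in Mes2 than in Mes3, with 6.04 in Mes2 and 8.25 in Mes3 for Hspa1a. Probes for such close copies may not tell them apart.

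Mes1 was set apart by chemokines and by genes that interferon induces. Of 25 measured chemokines and cytokines, 8 were at least 2-fold higher in Mes1 than in every other line, against 2.12% of all measured genes, and Mes1 was the highest line for 14, against 23.1% of all measured genes. Cxcl1, a chemokine that attracts neutrophils, had 13.96 in Mes1, against 5.70 in Mes2, 4.69 in Mes3, 6.95 in Mes4 and 8.18 in Mes5, which is at least 54.7 times more in Mes1. Ccl2, a chemokine that attracts monocytes, had 16.72 in Mes1, against 10.07 in Mes2, 10.18 in Mes3, 10.12 in Mes4 and 13.03 in Mes5. Ccl7, a related chemokine, had 14.98 in Mes1, against 7.25 in Mes2, 7.06 in Mes3, 8.14 in Mes4 and 11.87 in Mes5. In all 3 Mes1 was highest by a wide margin, and for Ccl2 and Ccl7 Mes5 came next while Mes2, Mes3 and Mes4 lay together. Ccl5, which attracts T cells, had 13.38 in Mes1, against 8.56 in Mes2, 8.37 in Mes3, 9.09 in Mes4 and 9.01 in Mes5. Il6, the interleukin of acute inflammation, had 11.81 in Mes1, against 6.59 in Mes2, 7.01 in Mes3, 8.72 in Mes4 and 8.21 in Mes5. Ccl20, a chemokine for dendritic cells and some T cells, had 7.29 in Mes1, against 3.92 in Mes2, 3.54 in Mes3, 3.39 in Mes4 and 3.75 in Mes5. Ier3, an early response gene, had 13.48 in Mes1, against 9.69 in Mes2, 10.45 in Mes3, 9.76 in Mes4 and 10.03 in Mes5. For these 4 genes the other lines lay closer to one another than to Mes1, which was at least 3.03 above the nearest.

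Of 39 measured interferon response genes, 13 were at least 2-fold higher in Mes1 than in every other line, against 2.12% of all measured genes. Mes1 was the highest line for 29 of the 39, against 23.1% of all measured genes. Usp18, which removes the ubiquitin-like protein ISG15 from its targets, had 8.94 in Mes1, against 5.36 in Mes2, 5.55 in Mes3, 4.45 in Mes4 and 3.39 in Mes5. Cxcl10, a chemokine induced by interferon, had 12.58 in Mes1, against 8.63 in Mes2, 9.15 in Mes3, 8.64 in Mes4 and 8.11 in Mes5. Ifit3, which takes part in the block of viral translation, had 9.16 in Mes1, against 6.06 in Mes2, 6.61 in Mes3, 6.49 in Mes4 and 6.39 in Mes5, and its relative Ifit1 had 9.86 in Mes1, against 7.20 in Mes2, 8.02 in Mes3, 7.57 in Mes4 and 7.71 in Mes5. Mx2, a GTPase of antiviral defence, had 8.98 in Mes1, against 6.39 in Mes2, 6.36 in Mes3, 5.48 in Mes4 and 5.11 in Mes5. The other members at least 2-fold above were Bst2, Ifitm3, Gbp3, Ifi44, Ifitm1, Stat2, Rtp4 and Ifi27. By contrast, 5 of the 39 were at least 2-fold lower in Mes4 than in every other line, against 1.18% of all measured genes. These were Bst2, the membrane protein that tethers budding virus, with 6.99 in Mes4, against 11.70 in Mes1, 10.26 in Mes2, 10.31 in Mes3 and 9.32 in Mes5, and Oasl1, Oasl2, Zbp1 and Parp14. With the normexp correction the SDs of Usp18, Ifit1, Ifit3 and Mx2 were under 1, and that of Cxcl10 was not. Class I antigen presentation, which interferon also induces, had no variable gene among 23 measured.

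The promoters of the genes high in Mes1 were examined for the letters that 2 families of factors recognise. The 250 bases before the start were taken from RefSeq (GRCm38.p6), which matched 192 of the 271 genes at least 2-fold above in Mes1. A match to the NF-kappaB motif on either strand was present in 45 of the 192 (23.4%), against 10.6% of 9836 measured genes with a promoter, 17.2% of variable genes and 8.23% of all 27025 promoters. The interferon response motif GAAANNGAAA, on either strand, was present in 14 of the 192 (7.29%), against 2.97% of measured genes, 4.97% of variable genes and 3.46% of all promoters. Among genes at least 2-fold above in the other lines, the NF-kappaB motif was present in 2 of 36 (5.56%) for Mes2, 3 of 13 (23.1%) for Mes3, 3 of 35 (8.57%) for Mes4 and 6 of 70 (8.57%) for Mes5. In the same order, the interferon response motif was present in 2 of 36 (5.56%), 0 of 13, 1 of 35 (2.86%) and 3 of 70 (4.29%). A match describes the letters and is no evidence of binding. The promoters of 5 genes high in Mes1 are shown 5′ to 3′ on the plus strand, ending 1 base before the start, with matches in capitals. They are shown as examples of genes whose signal was high in Mes1 and whose promoter holds a match.
Cxcl1 (chr5:90890995-90891244, NF-kappaB, 71 and 70 bases before the start, overlapping): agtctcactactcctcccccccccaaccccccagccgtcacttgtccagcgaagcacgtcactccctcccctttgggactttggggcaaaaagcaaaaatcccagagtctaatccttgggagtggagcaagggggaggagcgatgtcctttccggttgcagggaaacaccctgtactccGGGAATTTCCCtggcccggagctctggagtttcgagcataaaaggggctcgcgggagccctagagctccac
Il6 (chr5:30012864-30013113, NF-kappaB, 44 bases before the start): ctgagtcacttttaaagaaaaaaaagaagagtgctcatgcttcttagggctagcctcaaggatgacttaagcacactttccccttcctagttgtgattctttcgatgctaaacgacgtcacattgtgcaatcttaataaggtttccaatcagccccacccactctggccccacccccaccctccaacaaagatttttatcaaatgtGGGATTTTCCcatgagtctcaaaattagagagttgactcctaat
Ccl20 (chr1:83116516-83116765, NF-kappaB, 80 bases before the start): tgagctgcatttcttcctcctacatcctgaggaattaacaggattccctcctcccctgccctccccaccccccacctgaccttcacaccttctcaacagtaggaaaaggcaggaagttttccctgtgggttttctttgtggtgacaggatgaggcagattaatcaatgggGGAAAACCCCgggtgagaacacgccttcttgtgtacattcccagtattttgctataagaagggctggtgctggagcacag
Ifit1 (chr19:34640639-34640888, interferon response, 104 and 85 bases before the start): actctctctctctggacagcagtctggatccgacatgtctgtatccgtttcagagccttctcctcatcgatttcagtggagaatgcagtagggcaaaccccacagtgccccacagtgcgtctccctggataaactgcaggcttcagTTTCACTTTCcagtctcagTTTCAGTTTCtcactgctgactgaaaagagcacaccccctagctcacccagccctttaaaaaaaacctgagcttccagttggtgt
Ifit3 (chr19:34583279-34583528, interferon response, 156 and 122 bases before the start): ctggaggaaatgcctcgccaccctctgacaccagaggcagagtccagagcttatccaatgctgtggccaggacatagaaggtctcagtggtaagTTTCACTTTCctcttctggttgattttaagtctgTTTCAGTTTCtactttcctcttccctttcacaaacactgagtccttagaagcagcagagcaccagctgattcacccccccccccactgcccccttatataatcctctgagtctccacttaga

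Genes of glycolysis and of the response to low oxygen were also mostly highest in Mes1. Mes1 was the highest line for 29 of 35 measured members and at least 2-fold above every other line for 11, against 23.1% and 2.12% of all measured genes. Eno2, an enolase of nerve cells, went the other way, with 7.25 in Mes1, against 8.72 in Mes2, 9.01 in Mes3, 9.49 in Mes4 and 8.92 in Mes5. Pdk1, the kinase that keeps pyruvate out of the mitochondrion, had 10.53 in Mes1, against 7.44 in Mes2, 6.35 in Mes3, 7.93 in Mes4 and 9.18 in Mes5. Bnip3, which marks mitochondria for removal, had 13.71 in Mes1, against 11.08 in Mes2, 11.08 in Mes3, 11.30 in Mes4 and 10.98 in Mes5. Vegfa, the growth factor of blood vessels, had 14.65 in Mes1, against 13.56 in Mes2, 12.63 in Mes3, 12.15 in Mes4 and 12.34 in Mes5. Bnip3 showed Mes1 above 4 lines that lay close together, while for Pdk1 Mes5 and for Vegfa Mes2 lay nearer to Mes1. The glycolytic enzymes moved less. Ldha, lactate dehydrogenase A, had 16.55 in Mes1, against 15.31 in Mes2, 15.50 in Mes3, 15.30 in Mes4 and 15.32 in Mes5, and Slc2a1, a glucose transporter, had 12.85 in Mes1, against 11.75 in Mes2, 11.48 in Mes3, 11.73 in Mes4 and 11.16 in Mes5. Slc16a3, which exports lactate, varied most in the list, with 7.32 in Mes2, against 14.14 in Mes1, 11.58 in Mes3, 12.70 in Mes4 and 13.75 in Mes5, so Mes2 was low rather than Mes1 high. Only 5 of the 35 were variable, with a median SD of 0.583.

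Genes of other functions were also high in Mes1. Mfap2, a protein of elastic microfibrils, had 7.18 in Mes1, against 3.12 in Mes2, 3.14 in Mes3, 3.37 in Mes4 and 3.32 in Mes5. Loxl2 and Col1a2 were also highest in Mes1, and Plvap, a protein of the endothelial diaphragm, had 8.89 in Mes1, against 5.73 in Mes2, 5.62 in Mes3, 5.14 in Mes4 and 5.83 in Mes5.

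Genes low in Mes1 included part of the Notch pathway. Notch1, the receptor, had 5.70 in Mes1, against 8.19 in Mes2, 8.49 in Mes3, 9.06 in Mes4 and 9.13 in Mes5, and its second probe had an SD of 1.42. Jag1, a Notch ligand, had 9.20 in Mes1, against 12.25 in Mes2, 11.80 in Mes3, 11.33 in Mes4 and 11.54 in Mes5. Hey1, a transcription factor that Notch induces, had 6.17 in Mes1, against 11.96 in Mes2, 12.18 in Mes3, 10.19 in Mes4 and 10.72 in Mes5. These 3 of the 21 measured Notch genes were at least 2-fold lower in Mes1 than in every other line, against 1.47% of all genes. Hes1, another such factor, had 6.78 in Mes1, against 7.51 in Mes2, 7.64 in Mes3, 6.51 in Mes4 and 7.29 in Mes5 and did not show Mes1 apart. The Notch list as a whole was not low in Mes1, with a median of 0.10 against the mean of the other lines. Of the 21, Mes1 was the lowest line for 6 and the highest for 6, against 31.5% and 23.1% of all measured genes. Notch1 and Jag1 lie on chromosome 2, over whose genes Mes1 had a median of -0.50 against the mean of the other 4 lines. The part of that shift in these differences was not tested. Cdh15, the cadherin of muscle cells, had 4.91 in Mes1, against 12.89 in Mes2, 12.46 in Mes3, 8.0 in Mes4 and 12.05 in Mes5, and with Cdh13 and Cdh20 it made 3 of 22 cadherins that were at least 2-fold lower in Mes1. Rab32, a GTPase of lysosome-related organelles, had 2.58 in Mes1, against 8.77 in Mes2, 9.03 in Mes3, 6.76 in Mes4 and 8.83 in Mes5. Adamts2, which trims procollagen, had 9.25 in Mes1, against 13.57 in Mes2, 12.53 in Mes3, 13.24 in Mes4 and 12.98 in Mes5. Snai2 and Foxc2, of 16 measured factors that drive the epithelial to mesenchymal transition, were also at least 2-fold lower in Mes1. Snai2 had 12.32 in Mes1, against 14.23 in Mes2, 13.81 in Mes3, 14.40 in Mes4 and 13.41 in Mes5. Of the 16 factors, Mes1 was the lowest line for 6 and the highest for 3, Snai1 among them. Their median in Mes1 was 0.05 against the mean of the other lines.

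Mes4 stood out by what it lacked. Ccnd2, the gene of cyclin D2, which starts the cell cycle with the kinases CDK4 and CDK6, had 4.57 in Mes4, against 12.91 in Mes1, 11.87 in Mes2, 12.64 in Mes3 and 11.11 in Mes5 (chromosome 6, 127079694 to 127079753 of mm9), at least 92.8 times less in Mes4. The second Ccnd2 probe had an SD of 3.53. Ccnd1, the gene of cyclin D1, had 8.42 in Mes4, against 10.72 in Mes1, 10.24 in Mes2, 10.85 in Mes3 and 10.74 in Mes5. These D-type cyclins were the only 2 of 52 measured cell cycle genes with an SD of at least 1, and both were lowest in Mes4, although with the normexp correction the SD of Ccnd1 was 0.843. Timp3, an inhibitor of matrix proteases, had 7.82 in Mes4, against 11.96 in Mes1, 11.95 in Mes2, 12.38 in Mes3 and 11.47 in Mes5. Cd24a, a surface glycoprotein, had 4.08 in Mes4, against 8.54 in Mes1, 10.75 in Mes2, 10.36 in Mes3 and 9.76 in Mes5. Myadm, a myeloid membrane protein, had 3.47 in Mes4, against 10.54 in Mes1, 9.51 in Mes2, 9.88 in Mes3 and 9.35 in Mes5. In these 3 genes Mes4 stood below the other lines, which lay close together for Timp3 and covered over 4-fold for Cd24a. The integrin chains Itga9 and Itgb3, of 14 measured integrins, were also at least 2-fold lower in Mes4 than in every other line. So were Adamts7, Adamts9 and Adam8, of 30 measured matrix proteases and inhibitors, against 1.18% of all measured genes. The second Itgb3 probe had an SD of 0.29, so its probes disagreed. Few genes were higher in Mes4. Svep1, a large matrix protein, had 11.64 in Mes4, against 8.42 in Mes1, 7.10 in Mes2, 7.36 in Mes3 and 6.72 in Mes5. Vipr1, a receptor for vasoactive intestinal peptide, had 8.05 in Mes4, against 4.99 in Mes1, 4.64 in Mes2, 3.93 in Mes3 and 4.03 in Mes5. Bmp4, a bone morphogenetic protein, had 10.28 in Mes4, against 8.57 in Mes1, 7.07 in Mes2, 7.59 in Mes3 and 8.15 in Mes5. Postn and Fbln5, matrix proteins of fibroblasts, were at least 2-fold higher in Mes4 than in every other line. So were Myl9 and Cnn1, contractile proteins of smooth muscle, against 0.337% of all measured genes. Myl9 had 12.92 in Mes4, against 11.32 in Mes1, 8.92 in Mes2, 10.38 in Mes3 and 8.80 in Mes5. The smooth muscle markers Acta2, Tagln and Myh11 did not follow and were highest in Mes1, Mes3 and Mes2. Mes4 was the highest line for 3 of 24 measured smooth muscle and actin genes, against 17.0% of all measured genes.

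Genes at least 2-fold higher in Mes5 than in every other line included Anxa8, Col6a3 and Il33, and those at least 2-fold lower included part of the YAP and TAZ list, which holds targets and partners of these coactivators. Anxa8, an annexin, had 13.74 in Mes5, against 7.43 in Mes1, 7.24 in Mes2, 5.86 in Mes3 and 6.25 in Mes4, at least 79.1 times more in Mes5. Col6a3, a chain of collagen VI, had 14.31 in Mes5, against 10.32 in Mes1, 7.92 in Mes2, 7.94 in Mes3 and 10.07 in Mes4. Il33, a cytokine released from damaged cells, had 11.63 in Mes5, against 7.77 in Mes1, 4.18 in Mes2, 5.59 in Mes3 and 5.36 in Mes4. Mes5 was alone at the top in each, and Il11, a cytokine of the interleukin 6 family, was likewise at least 2-fold higher there. Fah, the last enzyme of tyrosine breakdown, had 7.99 in Mes5, against 3.39 in Mes1, 3.83 in Mes2, 3.73 in Mes3 and 3.86 in Mes4. Ankrd1, a nuclear repeat protein, had 7.35 in Mes5, against 12.15 in Mes1, 10.55 in Mes2, 10.68 in Mes3 and 11.01 in Mes4. Ccn2, a matricellular protein, had 9.82 in Mes5, against 13.60 in Mes1, 12.51 in Mes2, 13.58 in Mes3 and 13.38 in Mes4. Vgll3, a cofactor of TEAD factors, had 8.80 in Mes5, against 11.29 in Mes1, 10.54 in Mes2, 11.26 in Mes3 and 11.18 in Mes4. With Amot and Crim1, 5 of 25 measured YAP and TAZ genes were at least 2-fold lower in Mes5 than in every other line, against 0.706% of all measured genes. Col4a1 and Col4a2, neighbouring genes for the 2 main chains of basement membrane collagen IV, were lowest in Mes5, with 5.41 in Mes5, against 10.08 in Mes1, 8.43 in Mes2, 7.95 in Mes3 and 8.45 in Mes4 for Col4a1. Lrrk1, a kinase, had 3.13 in Mes5, against 9.12 in Mes1, 9.48 in Mes2, 9.29 in Mes3 and 9.19 in Mes4, so the other 4 lines lay close together. Its second probe had an SD of 1.75. Lpar4, a receptor for lysophosphatidic acid, had 3.61 in Mes5, against 10.80 in Mes1, 10.25 in Mes2, 9.02 in Mes3 and 11.11 in Mes4. Akap12, a scaffold for protein kinase A, had 4.72 in Mes5, against 10.12 in Mes1, 11.14 in Mes2, 11.38 in Mes3 and 8.68 in Mes4.

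Mes1 and Mes5 shared a set of their own. Ly6a, the surface protein known as Sca-1, had 9.67 in Mes1 and 9.57 in Mes5, against 3.66 in Mes2, 4.22 in Mes3 and 3.23 in Mes4. Ly6c2 had 12.25 in Mes1 and 11.52 in Mes5, against 5.95 in Mes2, 7.26 in Mes3 and 6.15 in Mes4, and Ly6c1 had 9.40 in Mes1 and 8.55 in Mes5, against 3.30 in Mes2, 5.16 in Mes3 and 4.12 in Mes4. These surface antigens of blood cells are encoded on chromosome 15, and Ly6c1 and Ly6c2 are near copies that probes may not tell apart. Igfbp7, which binds insulin-like growth factors, had 13.59 in Mes1 and 13.86 in Mes5, against 10.16 in Mes2, 9.15 in Mes3 and 7.26 in Mes4, and Ptgs1, the enzyme that starts prostaglandin synthesis, had 7.98 in Mes1 and 9.63 in Mes5, against 4.48 in Mes2, 4.96 in Mes3 and 3.97 in Mes4. Col11a1, a chain of collagen XI, had 11.58 in Mes1 and 12.08 in Mes5, against 6.96 in Mes2, 8.30 in Mes3 and 5.52 in Mes4. Of the 109 genes high in both lines, 15.6% lie on chromosome 15, which holds 4.05% of measured genes.

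Grouped by function, variable genes were a larger share of the classes whose products leave the cell or bind at its surface than of all measured genes (5.83%). By the Gene Ontology terms of the deposited table, 123 of 550 measured genes of the extracellular region (22.4%) were variable, and so were 38 of 103 of the extracellular matrix (36.9%), 18 of 51 heparin binding proteins (35.3%) and 41 of 205 adhesion genes. The nucleus class held more variable genes in number, 154 of the 743 against 123 of the extracellular region. The share was 4.18% for the nucleus, 3.87% for the mitochondrion, 2.84% for the cell cycle, 1.32% for DNA repair, 0.943% for translation and 0.877% for RNA splicing, and 0 of 119 genes of DNA replication and 0 of 51 of the proteasome were variable. The gene lists gave the same picture with other members. Of 21 measured collagens 12 were variable, with a median SD of 1.04, and so were 11 of 25 chemokines and cytokines (0.848), 13 of 39 interferon response genes (0.779), 11 of 36 growth factors (0.628), 10 of 28 laminins and matricellular proteins (0.623) and 9 of 30 matrix proteases and inhibitors (0.634), beside a median SD of 0.305 for all measured genes. No member was variable among 55 cytosolic ribosomal proteins (median SD 0.138), 57 genes of the respiratory chain (0.225), 31 of the constitutive proteasome (0.213) or 26 of DNA methylation and Polycomb (0.235). The lists were chosen with earlier results of these data known, and the shares are descriptions. They were not adjusted for brightness, and variable genes made up 11.3% of the dimmest of 4 groups of genes against 1.41% of the brightest.

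**Figure D3:**
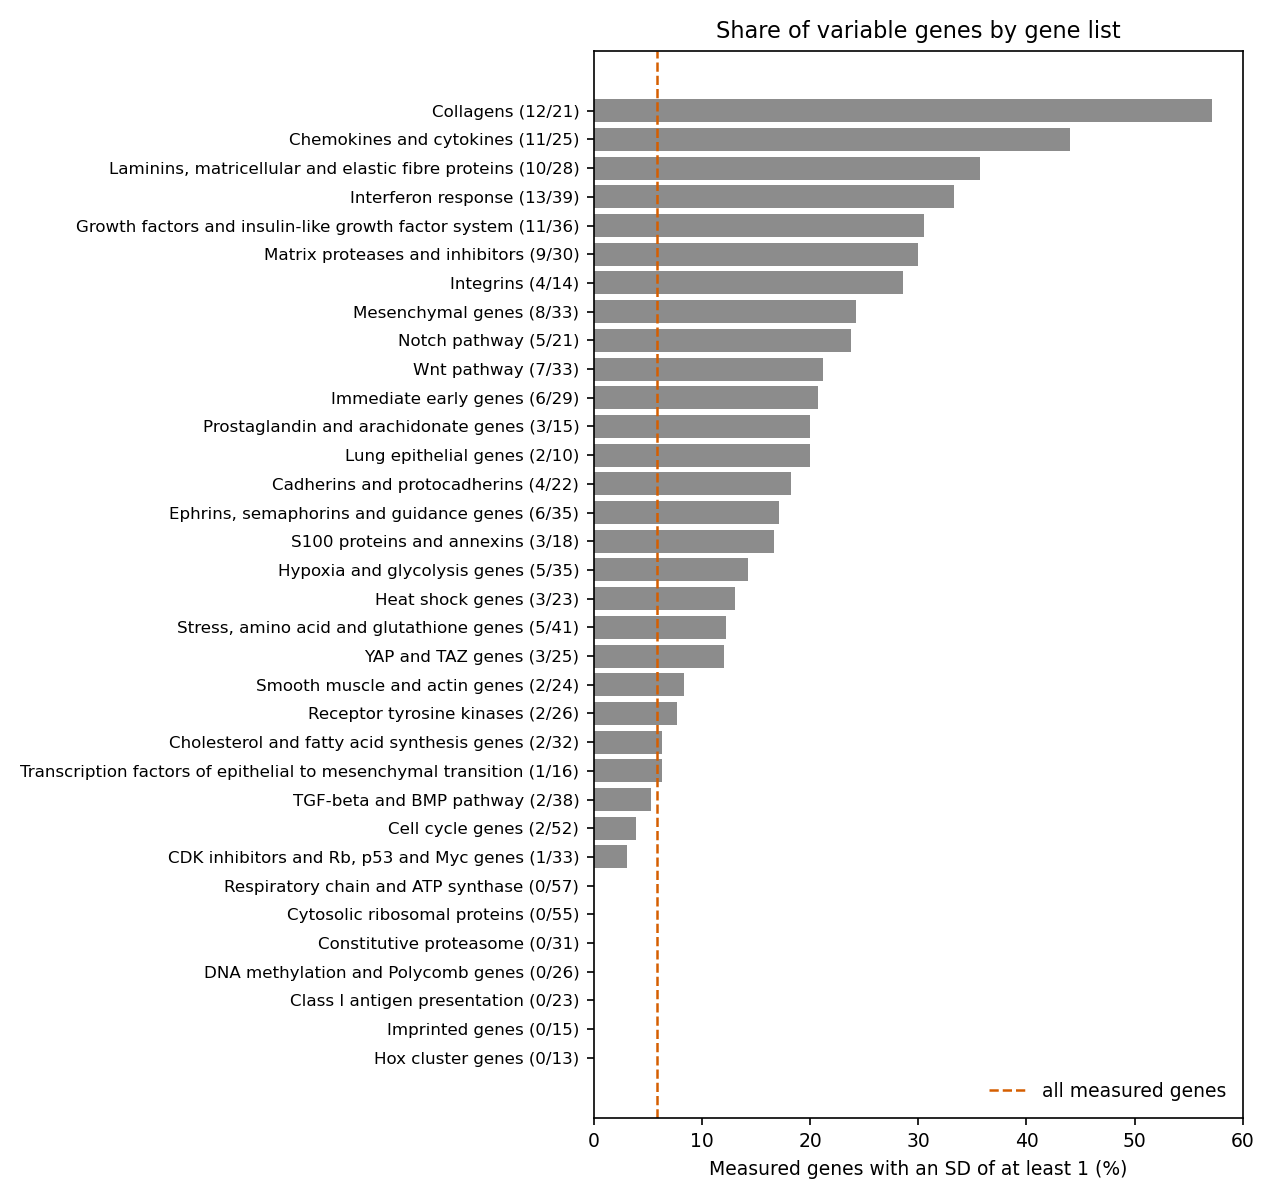
Percent of the measured genes of each list that had an SD of at least 1 over the 5 Mes lines (bars), with the count of variable and of measured genes after the name of the list, for lists with at least 10 measured genes. The dashed line is the share among all measured genes, 5.83%. Collagens are at the top with 12 of 21, and 7 lists at the bottom, among them ribosomal proteins, have none.

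The collagens did not vary as a block. Col1a2, a chain of collagen I, had 7.95 in Mes2 and 6.22 in Mes3, against 12.34 in Mes1, 9.12 in Mes4 and 11.09 in Mes5. Col7a1, of the anchoring fibrils, ran the other way, with 12.07 in Mes2 and 11.23 in Mes3, against 8.27 in Mes1, 8.11 in Mes4 and 9.86 in Mes5. Col3a1, of collagen III, had 15.04 in Mes1, 14.41 in Mes2, 13.93 in Mes3, 15.98 in Mes4 and 16.43 in Mes5, so Mes4 and Mes5 were high and Mes3 low. Col8a1, of collagen VIII, was 11.48 in Mes5, against 15.27 in Mes1, 14.26 in Mes2, 14.66 in Mes3 and 13.98 in Mes4. Col6a1 and Col6a2, chains of collagen VI, were at least 2-fold lower in Mes1 than in every other line, and Col6a3, the third chain, was highest in Mes5. Mmp3, the matrix protease stromelysin 1, had 9.29 in Mes3 and 10.16 in Mes5, against 4.04 in Mes1, 6.16 in Mes2 and 4.40 in Mes4. Mgp, matrix Gla protein, had 12.10 in Mes4 and 12.63 in Mes5, against 9.08 in Mes1, 8.49 in Mes2 and 8.45 in Mes3, and Sfrp2, a secreted inhibitor of Wnt signals, had 12.75 in Mes4 and 13.04 in Mes5, against 10.42 in Mes1, 10.04 in Mes2 and 10.14 in Mes3. Of the 21 measured collagens, Mes1 was the highest line for 10, Mes5 for 5, Mes2 for 3, Mes4 for 3 and Mes3 for 0.

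Of the genes that mark the mesenchymal state, Zeb1 and Zeb2 varied little, whereas the mesenchymal list as a whole varied more than all measured genes. Of its 33 measured genes 8 (24.2%) were variable, with a median SD of 0.539, beside 5.83% and 0.305 for all measured genes, and the 16 measured factors that drive the transition from epithelial to mesenchymal had a median SD of 0.436. Zeb1 and Zeb2, repressors of epithelial genes, had SDs of 0.15 and 0.18. Vim and Fn1, the filament vimentin and the matrix protein fibronectin, had 0.30 and 0.30 and Twist1 0.32, near the median of all measured genes. Cdh2, the N-cadherin, had 0.44 and Sparc, a matrix glycoprotein, 0.53, both above that median, and the second probe of Vim had 0.58. Snai1, the repressor SNAIL, was the only variable one of those 16 factors, with 7.21 in Mes1, 4.84 in Mes2, 5.47 in Mes3, 4.37 in Mes4 and 6.76 in Mes5, and its SD was 0.37 with the normexp correction. Rest, a repressor of nerve cell genes, had an SD of 0.16, Yap1 0.26, Myc 0.42, Rb1 0.29 and Trp53 0.21. Uchl1, a ubiquitin hydrolase of nerve and neuroendocrine cells, was the 1 variable member of 8 measured neuroendocrine genes, with 15.24 in Mes1, 12.78 in Mes2, 13.15 in Mes3, 10.65 in Mes4 and 14.42 in Mes5. Pfdn6, a subunit of the chaperone prefoldin, had an SD of 0.01, and Eif4e, which binds the cap of messenger RNA, 0.03, with 0.22 for its second probe. Rn18s, Rps18 and Ptprz1 had an SD of 0.00, since quantile normalization gives the same rank the same value on every array and these probes kept their rank.

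Some of the spread followed chromosomes. For each line and chromosome, the median was taken over its genes of the line minus the mean of the other 4 lines. Mes1 had a median of -0.50 on chromosome 2 (1004 genes), -0.40 on chromosome 13 (477), -0.35 on chromosome 19 (473), 0.35 on chromosome 10 (583), 0.36 on chromosome 12 (447) and 0.33 on the X chromosome (379). On chromosome 2 Mes1 was the lowest line for 66.7% of genes, and on chromosome 10 it was the highest for 57.8%. Mes5 had a median of 0.37 on chromosome 15 (517 genes), where it was the highest line for 51.5%. All other chromosome medians were smaller than 0.3 in size. These shifts were small beside the SD of variable genes. With the chromosome medians removed, 734 genes had an SD of at least 1 instead of 743, and the median SD was 0.278 instead of 0.305. The share of variable genes ran from 3.42% on chromosome 17 to 8.70% on chromosome 15, with 7.92% on the X chromosome, and chromosome 2, with the largest shift, had 5.08%. It did hold 17.6% of the genes at least 2-fold lower in Mes1, against 7.87% of measured genes. With the normexp correction the medians of Mes1 were -0.34, -0.26 and -0.22 on chromosomes 2, 13 and 19 and 0.23 to 0.24 on chromosomes 10, 12 and X. The cause of the shifts was not tested.

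**Figure D4:**
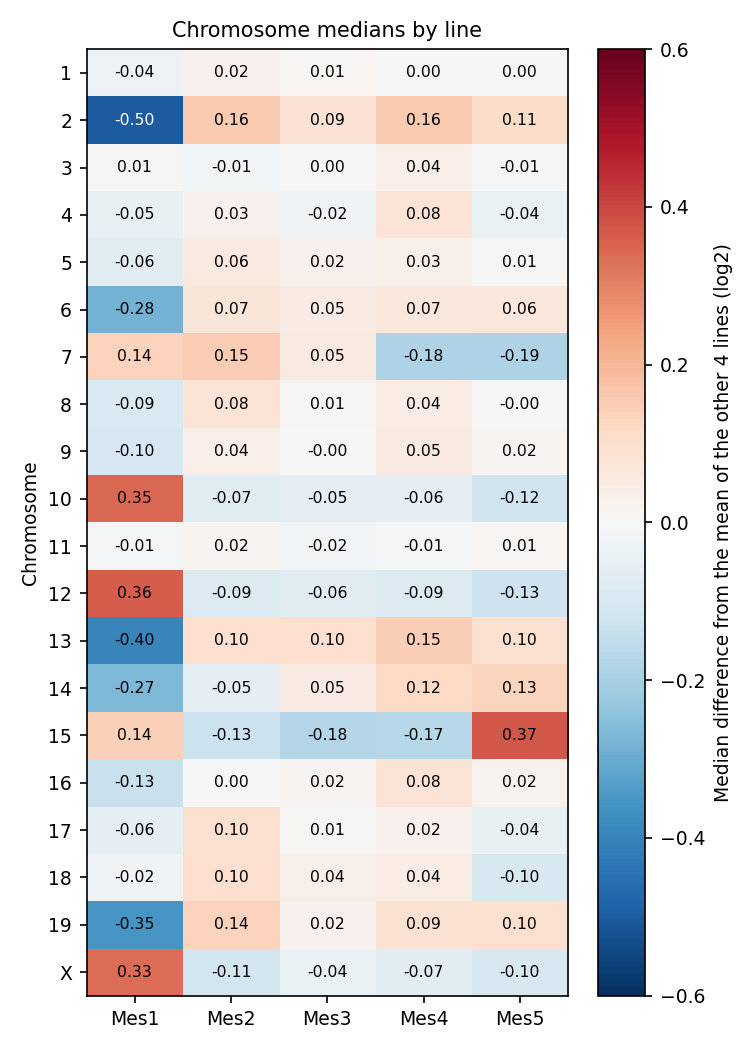
Median over the genes of each chromosome (rows) of a Mes line minus the mean of the other 4 Mes lines (log2, printed in each cell, red above and blue below 0). Chromosome 2 in Mes1 has the largest shift, -0.50, and chromosome 15 in Mes5 is the only shift of at least 0.3 outside Mes1.

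The shift was not even along every chromosome. Chromosome 7 was divided where the medians of Mes3 before and after differed most, between Neu3 and Spcs2. Over the 593 genes before this place the medians were 0.27 in Mes1, 0.01 in Mes2, -0.11 in Mes3, -0.08 in Mes4 and -0.09 in Mes5. Over the 381 genes after it they were 0.42 in Mes2 and 0.57 in Mes3, against -0.06 in Mes1, -0.46 in Mes4 and -0.45 in Mes5. The distal part thus separated the close pair from Mes4 and Mes5, with Mes1 between. Both Mes2 and Mes3 lay above both Mes4 and Mes5 for 281 of the 381 distal genes (73.8%), against 26.6% of the proximal genes and 24.8% of all measured genes. Variable genes made up 9.45% of the distal and 4.05% of the proximal part. Of the 72 genes high in Mes2 and Mes3, 20 (27.8%) lie on chromosome 7, which holds 7.64% of measured genes, and 18 of these lie in the distal part. Lsp1, Tnni2, Adam12 and Ebf3 are among them. Rras2, a small GTPase of the Ras family, had 12.00 in Mes2 and 12.12 in Mes3, against 10.74 in Mes1, 10.45 in Mes4 and 9.95 in Mes5, and Pde3b, a phosphodiesterase of fat cells, had 8.19 in Mes2 and 8.17 in Mes3, against 6.89 in Mes1, 5.97 in Mes4 and 7.02 in Mes5. These are larger differences than the medians of the region. Chromosome 4 showed a smaller region of this kind. Over its last 175 genes, from Nbl1 to Klhl17, Mes4 had a median of 0.49, against -0.07 in Mes1, -0.15 in Mes3 and -0.19 in Mes5, with Mes2 near 0, and only 5.14% of these genes were variable.

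**Figure D5:**
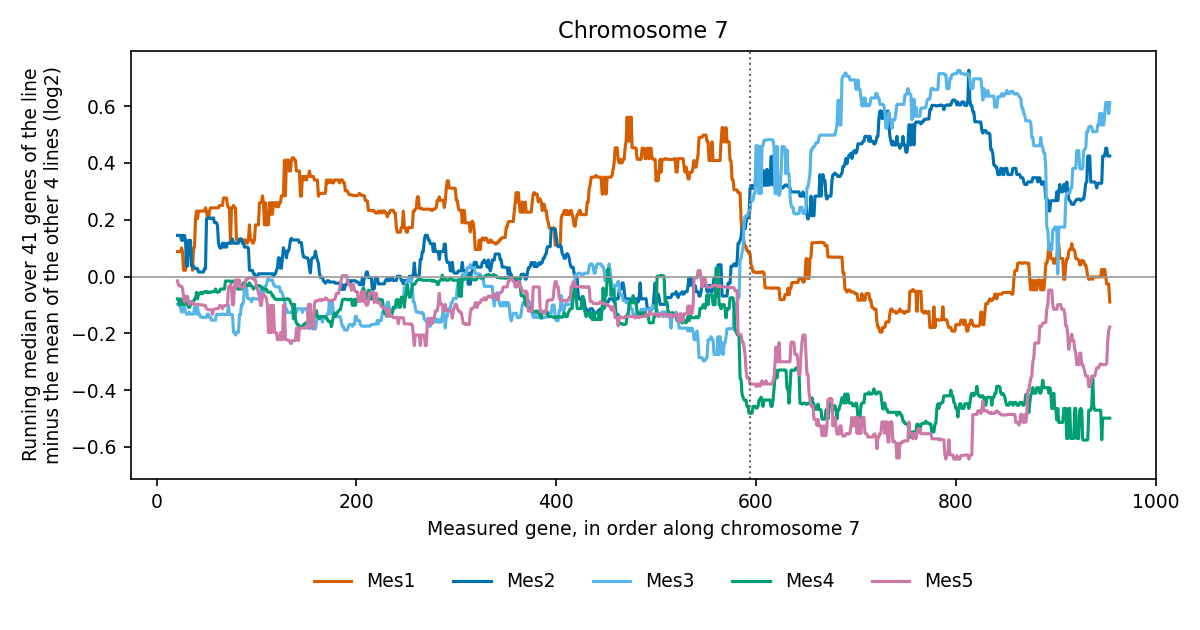
Running median over 41 neighbouring measured genes of chromosome 7, in order of position (horizontal axis), of each Mes line minus the mean of the other 4 lines (log2). The dotted line marks the division after gene 593, beyond which Mes2 and Mes3 run above 0 and Mes4 and Mes5 below it over nearly the whole part.

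Genes below background in some lines were left out of the values above. There were 2451 such genes, of which 975 were above background on 1 Mes array, 478 on 2, 480 on 3 and 518 on 4, and 6005 named genes were above background on none. For these the difference is a bound, taken against the lowest signal above background in a dim line or the probe's own value where that is higher. At least 2-fold differences were found for 1105 and at least 8-fold for 395. Mes1 was the only line above background for 413 genes, against 195 for Mes2, 167 for Mes3, 114 for Mes5 and 86 for Mes4, while Mes4 was the only line not above it for 172. The lowest signal above background was 2.49 in Mes1, 2.78 in Mes2, 2.68 in Mes3, 2.99 in Mes4 and 2.93 in Mes5. These counts were not adjusted for that difference. With a difference of at least 2-fold as well, the line alone above background was Mes1 for 122 genes, Mes5 for 52, Mes2 for 29, Mes4 for 20 and Mes3 for 17. Mes2 and Mes3 alone were above background for 77 genes and alone not above it for 80. Cxcl5, a chemokine for neutrophils, had 14.01 in Mes1 and was not well above background in Mes2, at least 2390.3-fold higher in Mes1. Slpi, a protease inhibitor of mucous surfaces, had 13.68 in Mes1 and was not well above background in Mes2 or Mes3, at least 1908-fold higher. Thbd, the clotting inhibitor thrombomodulin, was at least 881-fold higher in Mes1 than in Mes3, where it was not well above background. Pdlim1, an actin binding protein, was above background in Mes1 and Mes4 alone and at least 457-fold higher in Mes1 than in the dim lines. Armcx2, Rhox5 and Cd302 were among the 10 largest bounds and were not above background in Mes4 alone, with at least 1309.7-fold in the brightest line for Armcx2. Among genes measured in every line, the largest ratio of the highest to the lowest line was 616-fold, for Cxcl1.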

How the data were processed

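Messenger RNA of 5 Mes lines, and for 1 side by side count of 5 Epi lines, was labelled with a single dye and hybridised to an Agilent mouse array, 1 array per line. Scanner intensity values were made with Feature Extraction 10.7.3.1, with background subtracted in the processed signal, per the file headers. The authors deposited log2 values, quantile-normalized over all 10 arrays per the series' design text, with 1 value per probe, and these were used unchanged. The submitters' processing notes name GeneSpring 11.0. The 10 columns of quality flags beside them were not used.

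Probes were kept when at least 0.5 of their spots were flagged well above background in each of the 5 Mes scanner files. Names come from the deposited table, updated through the Entrez ID for 33405 of 34893 named probes, and 6281 probes had none. Each gene is represented by its brightest kept probe. Positions are those of the array design on mm9. With 1 array per line there is no test and no p-value. The number of arrays limits the precision, and a slide held 2 or 3 Mes arrays, so line and slide were examined only by removing slide means and by the 3 arrays of 1 slide.

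The genes named were chosen by rank: the 25 of largest SD, the 10 of largest gap in each direction for Mes2 and Mes3, the 10 of largest difference in each direction between them, the 6 of largest gap in each direction for each line, the 10 of smallest SD, up to 4 of largest SD and 1 of smallest SD in each of 42 gene lists (1474 members), the 10 of largest bound among genes above background on some lines only, the 3 of largest departure on each shifted chromosome, and a set of markers. The lines and lists were chosen with earlier results of these data known. Members of a list that stood apart in a line were also named, after their values were seen. The classes by Gene Ontology, the division of chromosomes 7 and 4, the removal of chromosome medians and the promoter motifs were likewise chosen after seeing the data. Motifs were searched in the 250 bases before the start on both strands. The NF-kappaB motif is named without its letters.

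Alternatives were quantile normalization or 75th percentile scaling of the processed signal (floor 1), a normexp correction of median spot and local background intensities (offset 50), other filters, the mean over probes, each line left out, and the slide. Tools were Python 3.11.15 (numpy 2.4.6, pandas 2.3.3, matplotlib 3.10.9) and R 4.3.3 (limma 3.58.1). The computation of spreads and gaps was tested on simulated data. Some named genes are not reported here.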

Additional observations from a re-analysis of the deposited data

Results flagged for a closer look

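For groups of 5 values, a line was set apart when its gap to the nearest other line, divided by the range over the 5 lines, passed Dixon's 95% value; chance alone does this in about 5% of groups. Over all measured genes 860 (6.74%) passed, and of the 743 variable genes 81 (10.9%) did, with Mes1 apart in 43, Mes4 in 19, Mes5 in 16, Mes2 in 3 and Mes3 in 0.

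The genes described were in part chosen for a large gap between a line and the others, so passing follows in part from that choice. Mes1 was the line apart for 11 of the genes described. It was high for Bnip3 (ratio 0.884) and Ldha (0.842) of the low oxygen list, for the chemokines Ccl20 (0.866), Ccl5 (0.855) and Cxcl10 (0.768), for Ier3 (0.80) and Ifit3 (0.821), and for Mfap2 (0.938) and Plvap (0.814). It was low for Adamts2 (0.760) and Notch1 (0.728). Mes4 was low for Ccnd1 (0.749), Ccnd2 (0.784), Ebf3 (0.798), Myadm (0.832) and Timp3 (0.80) and high for Vipr1 (0.743). Mes5 was high for Anxa8 (0.801) and Fah (0.899) and low for Ccn2 (0.712), Lpar4 (0.721) and Lrrk1 (0.944). Mes2 was low for Idi1 (0.712), and Mes3 was apart for none of the genes described.

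Among chromosome medians of a size of at least 0.3, Mes1 stood apart by the same ratio on chromosomes 2 (0.894), 13 (0.906) and 19 (0.768), where it was low, and on chromosomes 10 (0.859), 12 (0.869) and X (0.844), where it was high. The shift of chromosome 15 in Mes5 did not pass. These chromosomes were chosen for a large shift in a line, so passing again follows in part from that choice.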

How the results depend on the processing

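No paired analysis was possible because no result comes from a test: each line has 1 array, and the numbers of the lines pair no samples. The 7 chromosome medians of at least 0.3 in size kept their sign under the 7 alternatives run on them. The quantile-normalized scanner signal and the filter on every spot left each count within 1.5 times and each chromosome median within the spread of the other lines. With the normexp correction 251 genes were variable, Mes2 and Mes3 lay above in 22 and below in 57, and 149 differed between them. With dim probes kept, these counts were 1928, 165, 255 and 2154, and among the brighter genes (mean level at or above the median) they were 158, 17, 35 and 111, in which fewer genes were counted by construction. For Mes1 the chromosome medians with normexp were -0.34 on chromosome 2, 0.24 on 10, 0.23 on 12, -0.26 on 13, -0.22 on 19 and 0.24 on X, and with dim probes kept -0.34, 0.23, 0.25, -0.28, -0.27 and 0.16. Among brighter genes chromosome 10 had 0.39 and chromosome 12 had 0.43, with 75th percentile scaling chromosome 12 had 0.39, and with the mean over probes chromosome 12 had 0.32 and chromosome 13 had -0.42. The cause of these changes was not tested. With each line left out in turn, 609 to 805 genes were variable, with a median SD of 0.257 to 0.312. Removing slide means gave 827, the 3 arrays of 1 slide 880, and removing chromosome medians, added after seeing the data, 734. Of the 97 variable genes whose values are given, 26 had an SD under 1 with normexp, 1 with 75th percentile scaling (Vegfa), 1 with the quantile-normalized scanner signal (Col3a1) and 2 of 24 by a second probe (Col3a1 and Itgb3), and 43 fell under 1 when 1 of the lines was left out. Dim probes limit the values, since 11.3% of the dimmest of 4 groups of genes were variable against 1.41% of the brightest.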
